A study of Mus musculus with 17 samples.

Results

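The genes described here were 10 members of the JAK-STAT pathway and of its feedback inhibitors. They were the kinase gene Jak2, the transcription factor genes Stat3, Stat4, Stat5a, Stat5b and Stat6, and the inhibitor genes Socs1, Socs2, Socs3 and Cish. They were chosen by name: every probe set of the array annotated to exactly 1 of these symbols was taken, and each is given. This gave 17 probe sets of the 45037 measured, and 10 genes of the 17097 that had a probe set of a single symbol.

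The study measured gene expression in mouse myeloid cells sorted by flow cytometry, on 17 Affymetrix arrays with 1 pool of cells each. Mice were 6 to 10 weeks old. Its purpose, as its design text gives it, was to sort the expression changes of bone marrow progenitors that lack the transcription factor IRF8 by the signatures of mature myeloid cells. Wild-type spleen gave 3 pools of macrophages, gated as CD11c-, CD11b+ and MCSFR+ (the receptor for M-CSF), and 3 pools of granulocytes, gated as CD11c-, CD11b+, Ly6C+ and MCSFR-. The other 4 groups were myelo-dendritic progenitors (MDPs) of bone marrow, all gated as negative for lineage markers, sca1 and CD127 and positive for CD117 and MCSFR. They comprised 2 pools without VENUS expression (titled IRF8_neg_MDP), 3 pools described as IRF8 knockout, 3 pools of reporter mice with VENUS expression (titled IRF8_PAC_MDP) and 3 wild-type pools. Both VENUS groups and the knockout pools carry the genotype label IRF8-deficient, so the MDP groups are named here by VENUS expression or by the knockout label. Each pool of spleen cells, of knockout-labelled MDPs and of wild-type MDPs held cells of 5 mice. For the VENUS groups the labels give no number of mice.

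Cytokines such as IL-6, G-CSF, erythropoietin, GM-CSF, IL-4 and IL-12 bind receptors that have no enzyme of their own and carry JAK kinases. The kinase phosphorylates the receptor and then a STAT protein, which pairs, enters the nucleus and turns on target genes, among them the SOCS genes and Cish, whose proteins bind the receptor or the kinase and damp the signal. In blood formation STAT5 is known for erythroid, megakaryocyte and mast cell growth, STAT3 for the response of neutrophils to G-CSF, and STAT6 for the response of macrophages to IL-4 and IL-13.

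All levels are log2 values after RMA normalization, and a difference of 1 is a 2-fold change. Array medians lay between 4.33 and 4.48 and lower quartiles between 3.18 and 3.42. A level near the lower quartile cannot be told from the dim end of the array, and levels are not set between probe sets. The spleen macrophages had a mean of 8.60 to 8.72 over 13 monocyte and macrophage markers, and the granulocytes 5.70 to 6.35. Over 12 neutrophil markers the macrophages had a mean of 5.74 to 7.15, and the granulocytes 10.51 to 11.34. In the VENUS-negative MDPs the M-CSF receptor gene Csf1r lay at 4.83 and 5.09, against 7.63 to 8.05 in VENUS-positive MDPs, although both gates select the receptor. Their Irf8 level was 5.87 ± 0.54 (SD, n = 2), against 10.88 ± 0.19 in VENUS-positive MDPs (SD, n = 3). In knockout-labelled MDPs Irf8 was at 10.31 ± 0.12, against 10.34 ± 0.19 in wild-type MDPs (SD, n = 3 each), a difference of -0.03 (SE 0.42, adjusted p = 0.998). No source used here says where the Irf8 probes lie relative to the disruption, so Irf8 does not check that label. Wild-type MDP pool 3 stood apart in markers of other lineages, with an erythroid mean of 8.95 against 6.35 and 6.63 in pools 1 and 2, and a neutrophil mean of 9.22 against 6.26 and 5.96. These are sorted bulk pools, in which fewer cells of a type and less RNA per cell cannot be told apart. The adjusted p-values (limma, Benjamini-Hochberg over all probe sets, called under 0.05) set each difference against a spread between pools, estimated over all 6 groups together.

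Of the 5 comparisons, member calls were most frequent between granulocytes and wild-type MDPs and absent between knockout-labelled and wild-type MDPs. The highest and lowest shares of all probe sets called fell in the same comparisons, so these ends of the order are not particular to the members. No member probe set of 17 was called between knockout-labelled and wild-type MDPs, where 0.575% of all probe sets were. Between VENUS-negative and VENUS-positive MDPs 2 of 17 were called, both of Stat5a and both higher, against a background of 4.44% in either direction and 2.2% higher. Between macrophages and granulocytes 5 of 17 were called, 2 higher and 3 lower, against 24.9% of all probe sets. Between macrophages and wild-type MDPs 7 of 17 were called, 6 higher and 1 lower, against 18.9% of all and 9.61% higher. Between granulocytes and wild-type MDPs 11 of 17 were called, 10 higher and 1 lower, against 38.4% of all and 20.4% higher. Pools did not overlap in 7 of 17 member probe sets between macrophages and granulocytes, against 44.5% of all probe sets. Between macrophages and wild-type MDPs this held for 11 of 17, against 39.8% of all. Between granulocytes and wild-type MDPs it held for 13 of 17, against 48.8%, and between VENUS-negative and VENUS-positive MDPs for 5 of 17, against 27.7%. Several of the 17 probe sets measure the same gene, and the members are not independent of each other.

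**Figure D1:**
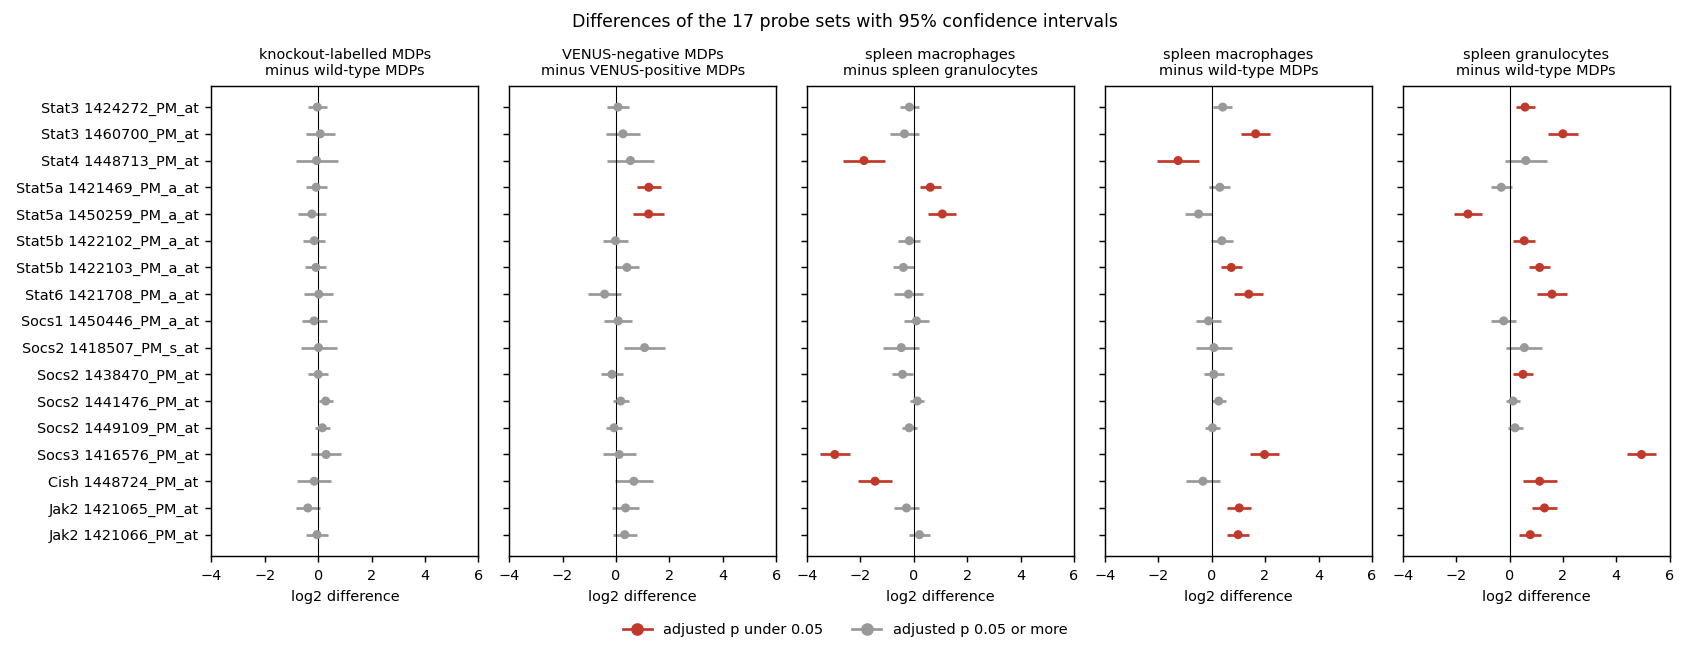
Log2 differences (x axis) of the 17 probe sets (rows) in the 5 comparisons, with 95% confidence intervals of the limma fit and an adjusted p under 0.05 in red. No interval of the knockout comparison is red, both Stat5a rows are red in the VENUS comparison, and Socs3 lies at -2.96, 1.98 and 4.94 in the 3 comparisons with spleen cells, where the last 2 can understate the change because wild-type MDPs are at the dim end.

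Jak2, the kinase that serves the receptors for erythropoietin, thrombopoietin, GM-CSF and growth hormone, was higher in both mature cell types than in wild-type MDPs. On the probe set with the higher mean, 1421066_PM_at, macrophages had 9.18, 9.13 and 9.21 and granulocytes 9.14, 9.08 and 8.67. The MDP pools had 8.98 and 8.99 without VENUS, 8.39, 8.31 and 7.73 with the knockout label, 8.94, 8.52 and 8.51 with VENUS, and 8.13, 8.01 and 8.42 in the wild type. All spleen pools lay above all wild-type pools, while the VENUS-negative pools lay among the spleen values. The difference from wild-type MDPs was 0.99 in macrophages (SE 0.19, 1.98-fold, adjusted p = 0.0017) and 0.78 in granulocytes (SE 0.19, 1.71-fold, adjusted p = 0.00496). On the other probe set, 1421065_PM_at, macrophages had 6.34, 6.69 and 6.26 and granulocytes 6.78, 6.68 and 6.65, against 5.70, 4.90 and 5.59 in wild-type MDPs. Again no spleen pool overlapped a wild-type pool, with differences of 1.03 (adjusted p = 0.00279) in macrophages and 1.31 (adjusted p = 0.0002) in granulocytes. On 1421066_PM_at Jak2 was also 0.84 higher in VENUS-negative than in knockout-labelled MDPs (SE 0.21, adjusted p = 0.0356), a call that left-out libraries ended. The adjusted p was 0.157 without VENUS-negative pool 1, 0.146 without VENUS-negative pool 2 and 0.104 without knockout-labelled pool 3. Fitted on these 2 groups alone it was 0.201. The VENUS-negative minus VENUS-positive difference was 0.33 on this probe set (interval -0.13 to 0.78) and 0.36 on the other (interval -0.15 to 0.87), neither of them called.

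Stat3, which carries signals of the IL-6 family, IL-10 and G-CSF, was higher in both spleen cell types than in the MDPs. On 1460700_PM_at macrophages had 9.58, 9.69 and 9.82 and granulocytes 10.08, 10.38 and 9.68. Among MDPs the VENUS-negative pools had 8.24 and 8.27, the knockout-labelled pools 8.40, 8.44 and 7.55, the VENUS-positive pools 7.71, 8.53 and 7.74, and the wild-type pools 7.96, 8.02 and 8.18. Every spleen pool was above every MDP pool. The MDP groups overlapped each other, except that both VENUS-negative pools lay above the wild-type pools. The gain over wild-type MDPs was 1.64 in macrophages (SE 0.26, 3.13-fold, adjusted p = 0.000335) and 2.00 in granulocytes (SE 0.26, 3.99-fold, adjusted p = 2.54e-05). Macrophages minus granulocytes was -0.35 (interval -0.91 to 0.20, adjusted p = 0.353). In the order of the 6 group means, granulocytes, macrophages, VENUS-negative, knockout-labelled, wild-type and VENUS-positive MDPs, the single step that was called lay between macrophages and VENUS-negative MDPs. The dimmer probe set 1424272_PM_at ran from 5.20 to 5.59 in the 6 spleen pools and from 4.46 to 5.15 in the 11 MDP pools. Its differences from wild-type MDPs were smaller, at 0.41 in macrophages (adjusted p = 0.108) and 0.58 in granulocytes (adjusted p = 0.0127). The granulocyte call had an adjusted p of 0.0503 without wild-type MDP pool 1.

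Stat6, the factor activated by IL-4 and IL-13, showed the same split between mature cells and progenitors. Macrophages had 6.28, 6.45 and 6.25 and granulocytes 6.76, 6.55 and 6.27. The MDP pools had 5.42 and 4.54 without VENUS, 4.97, 5.07 and 4.85 with the knockout label, 5.23, 5.82 and 5.17 with VENUS, and 4.57, 4.83 and 5.42 in the wild type. The lowest spleen pool was above the highest MDP pool. Stat6 was 1.38 higher in macrophages (SE 0.25, 2.61-fold, adjusted p = 0.00117) and 1.59 higher in granulocytes (SE 0.25, 3.01-fold, adjusted p = 0.000177) than in wild-type MDPs. Among the MDPs, VENUS-negative minus VENUS-positive was -0.43 (interval -1.04 to 0.18) and knockout-labelled minus wild-type 0.02 (interval -0.52 to 0.57), neither of them called.

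Stat5a and Stat5b encode near-identical proteins that act downstream of erythropoietin, thrombopoietin, IL-3 and GM-CSF, and their transcripts did not run together. In granulocytes both Stat5b probe sets were higher than in wild-type MDPs, and 1 of 2 Stat5a probe sets was lower. Stat5b on 1422103_PM_a_at was at 7.95, 8.36 and 7.89 in macrophages and at 8.30, 8.58 and 8.49 in granulocytes, against 7.21, 7.42 and 7.36 in wild-type MDPs. The other MDP pools spanned 6.71 to 7.59, so no MDP pool reached the spleen values. The differences from wild-type MDPs were 0.73 in macrophages (SE 0.18, 1.66-fold, adjusted p = 0.0108) and 1.13 in granulocytes (SE 0.18, 2.18-fold, adjusted p = 0.000215). Without macrophage pool 2 the macrophage difference was 0.59 with an adjusted p of 0.0648. The probe set 1422102_PM_a_at gave smaller differences, 0.38 in macrophages (adjusted p = 0.227) and 0.55 in granulocytes (adjusted p = 0.0376). That granulocyte call was lost without granulocyte pool 1 (0.0855) or 2 (0.101) and without wild-type MDP pool 1 (0.0656), 2 (0.0994) or 3 (0.0716), given as adjusted p-values. Centring the arrays on the median (0.0825) or a trended robust variance (0.0669) also ended it.

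Stat5a was highest in VENUS-negative MDPs and, on its second probe set, lowest in granulocytes. On 1421469_PM_a_at the VENUS-negative pools had 9.51 and 9.31, the knockout-labelled pools 8.49, 8.31 and 8.42, the VENUS-positive pools 7.96, 8.30 and 8.29, and the wild-type pools 8.63, 8.20 and 8.62. Macrophages had 8.65, 8.62 and 9.09 and granulocytes 7.96, 8.51 and 8.05. Both VENUS-negative pools lay above all 15 other pools of the series. On 1450259_PM_a_at the VENUS-negative pools had 9.20 and 8.95, against 7.89, 8.15 and 7.52 with VENUS. The knockout-labelled pools had 8.41, 7.80 and 7.99, against 8.25, 8.43 and 8.23 in the wild type. Here too both VENUS-negative pools were above every other pool. Macrophages had 7.50, 7.95 and 7.97 and granulocytes, at the bottom, 6.35, 6.57 and 7.30.

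The VENUS-negative minus VENUS-positive difference of Stat5a was 1.23 on 1421469_PM_a_at (SE 0.21, 2.34-fold, adjusted p = 0.00248) and 1.22 on 1450259_PM_a_at (SE 0.27, 2.33-fold, adjusted p = 0.0181). Fitted on the 5 pools of these 2 groups alone, the same differences had adjusted p-values of 0.0585 and 0.104. The second was also lost, at adjusted p-values of 0.136, 0.0547 and 0.0622, without VENUS-negative pool 1, VENUS-negative pool 2 or VENUS-positive pool 3. Against knockout-labelled MDPs, VENUS-negative MDPs were 1.00 higher on the first probe set (SE 0.20, adjusted p = 0.0096) and 1.01 higher on the second (SE 0.27, adjusted p = 0.0487). Among the 17 member probe sets 3 were called in that comparison, with that of Jak2, against 4.74% of all probe sets. Without VENUS-negative pool 1 the first had an adjusted p of 0.0939, and the second was lost in 8 of its 10 alternatives, with adjusted p-values up to 0.275. Against wild-type MDPs the first probe set was 0.93 higher (SE 0.20, adjusted p = 0.0192), the single member probe set of 17 called there, where 3.99% of all were. That call was lost without VENUS-negative pool 1 (adjusted p = 0.147), VENUS-negative pool 2 (0.0542) or wild-type MDP pool 2 (0.0681). On these 2 groups alone its adjusted p was 0.108. Stat5b differed between VENUS-negative and VENUS-positive MDPs by 0.41 (interval -0.03 to 0.85) and -0.02 (interval -0.48 to 0.45) on its 2 probe sets, neither of them called.

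The 2 probe sets of Stat5a gave different answers for granulocytes against wild-type MDPs. The second fell by 1.56 (SE 0.24, adjusted p = 0.000138), and the first gave -0.31 (interval -0.70 to 0.08, adjusted p = 0.199). Both were higher in macrophages than in granulocytes, by 0.61 (SE 0.18, adjusted p = 0.024) and 1.07 (SE 0.24, adjusted p = 0.00482). The first of these calls was lost without macrophage pool 3 (0.117) and without granulocyte pool 1 (0.0786) or 3 (0.0808). On these 2 groups alone its adjusted p was 0.0695. Over the 17 arrays the Pearson r between the 2 Stat5a probe sets was 0.63, against 0.82 for Stat5b, 0.90 for Stat3 and 0.69 for Jak2, as a description of arrays that share groups.

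**Figure D2:**
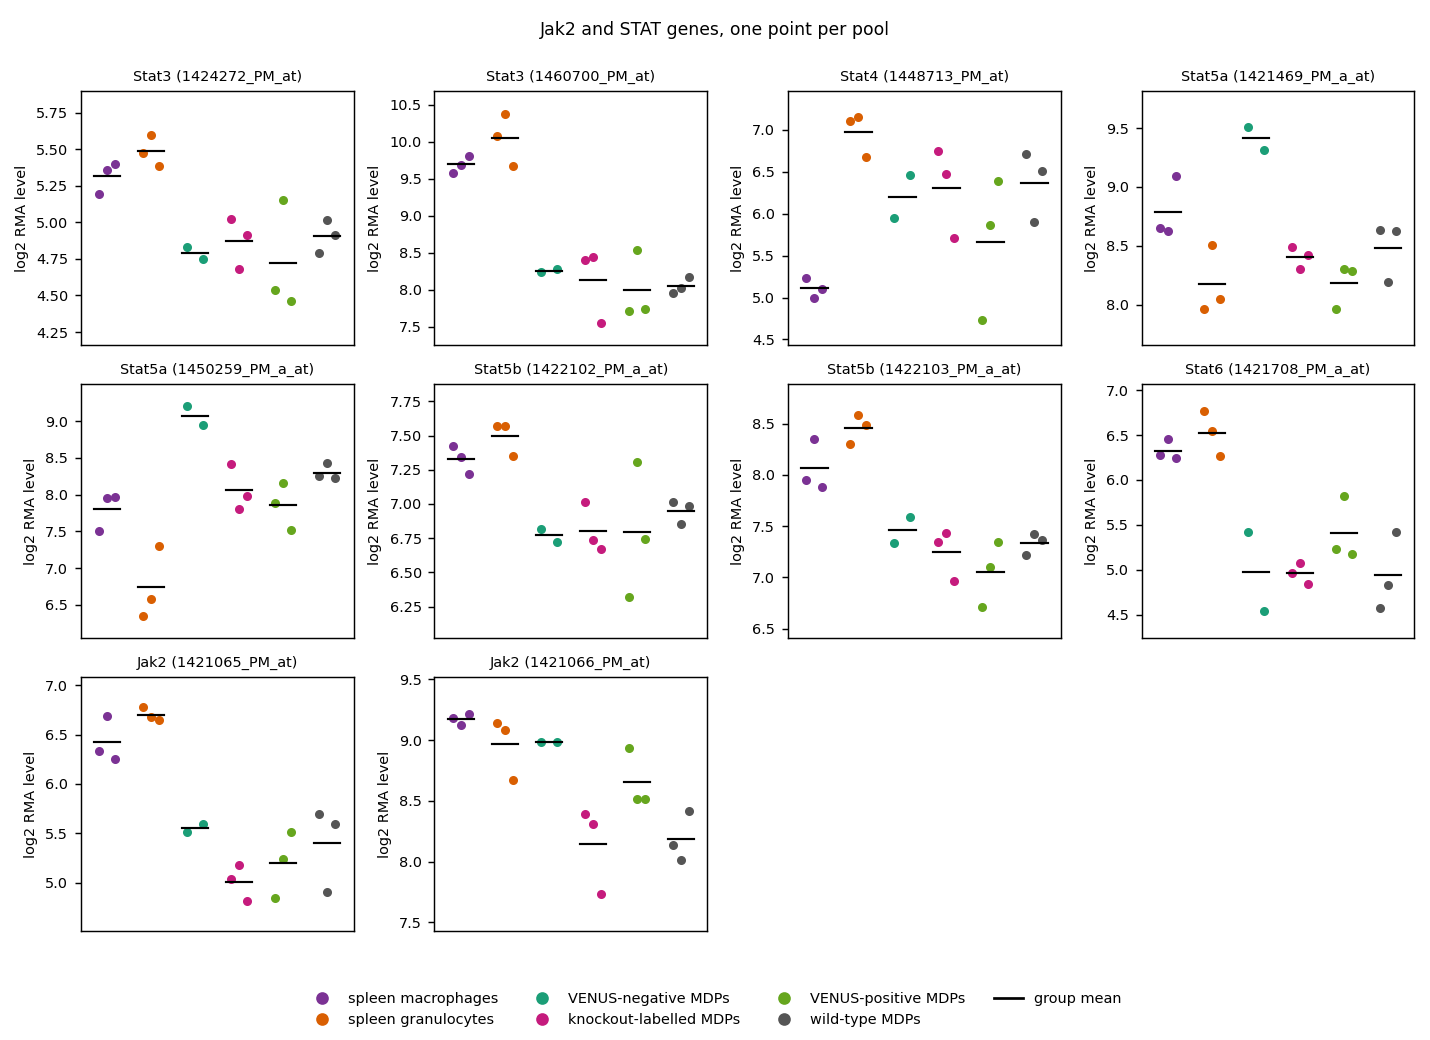
Log2 RMA level (y axis, scaled separately for each probe set) of the Jak2 and STAT probe sets in the 17 pools, with 1 point per pool, colours for the 6 groups and a bar at each group mean. Stat3 and Stat6 split the spleen cells from all MDP pools, both Stat5a panels have the VENUS-negative pools on top, and Stat4 is low in macrophages at 4.99 to 5.24.

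Markers of other lineages also differed between VENUS-negative and VENUS-positive MDPs, where Stat5a did. Of 11 erythroid markers 10 were measured, and their mean level was 10.27 and 8.81 in the VENUS-negative pools, against 6.42, 6.02 and 6.58 in the VENUS-positive pools. Of these 10, 6 were called higher and none lower, against 2.59% of all genes higher. Car2, a carbonic anhydrase of red cells, was at 11.86 and 10.66, against 6.13 to 6.80. The globin genes overlapped, with Hbb-b2 at 11.84 and 10.20, against 10.14 to 11.01, and Hba-a1 at 11.94 and 9.41, against 8.70 to 10.74. Over 8 megakaryocyte markers the VENUS-negative pools averaged 6.40 and 6.79, against 3.87 to 4.19 with VENUS, and over 8 mast cell and basophil markers 6.97 and 7.01, against 4.32 to 4.45. Over 13 monocyte and macrophage markers they averaged 4.19 and 4.32, against 6.76 to 6.82. Over 9 stem and early progenitor markers they averaged 6.23 and 6.41, against 5.06 to 5.46, with 5 called higher and 1 lower. The part of these lineages and of immature cells in the Stat5a difference was not tested. In wild-type MDP pool 3, with an erythroid mean of 8.95, Stat5a was at 8.62 on 1421469_PM_a_at, against 8.63 and 8.20 in wild-type pools 1 and 2, and at 8.23 on 1450259_PM_a_at, against 8.25 and 8.43.

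**Figure D3:**
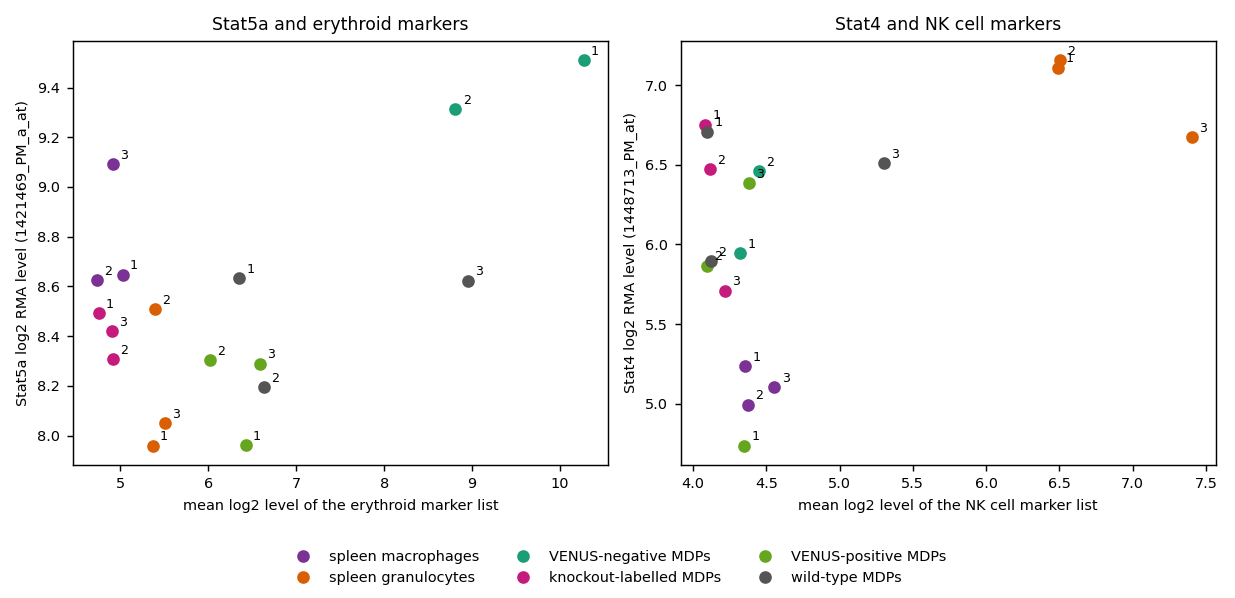
Left, the Stat5a level (y axis, log2, 1421469_PM_a_at) against the mean level of 10 erythroid markers (x axis, log2). Right, the Stat4 level against the mean of 12 NK cell markers, with 1 point per pool, labelled by pool number and coloured by group. The 2 VENUS-negative pools stand at the upper right on the left, where wild-type MDP pool 3 is at an erythroid mean of 8.95 and a Stat5a level of 8.62, and the 3 granulocyte pools stand apart on the right.

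Stat4, the factor of IL-12 signalling known best from NK and T cells, was low in macrophages. Macrophages had 5.24, 4.99 and 5.10, against 7.11, 7.16 and 6.67 in granulocytes. The MDP pools had 5.94 and 6.46 without VENUS, 6.75, 6.47 and 5.71 with the knockout label, 4.74, 5.87 and 6.38 with VENUS, and 6.71, 5.90 and 6.51 in the wild type. Macrophages lay under all granulocyte and wild-type MDP pools, and VENUS-positive pool 1 was the one pool lower still. The macrophage minus granulocyte difference was -1.87 (SE 0.37, adjusted p = 0.00168), with the granulocytes 3.65-fold higher. Macrophages were 1.26 lower than wild-type MDPs (SE 0.37, adjusted p = 0.0255). That second call was lost without macrophage pool 1 (adjusted p = 0.0546), 2 (0.0846) or 3 (0.0683) and without wild-type MDP pool 1 (0.103) or 3 (0.0777). Granulocytes minus wild-type MDPs was 0.61 (interval -0.18 to 1.40), which was not called, and no 2 neighbours in the order of the 6 group means were called apart. The granulocyte pools also carried NK cell markers. All 12 were measured, with means of 4.36, 4.37 and 4.56 in macrophages and 6.49, 6.50 and 7.40 in granulocytes, against 4.10, 4.12 and 5.30 in wild-type MDPs. Of these 10 were lower in macrophages than in granulocytes and none higher, against 12% of all genes lower. The granzyme gene Gzma was at 4.28, 5.38 and 5.89 in macrophages and 10.51, 10.50 and 11.61 in granulocytes. The chemokine gene Ccl5 was at 6.02, 6.04 and 6.20 in macrophages and 9.62, 9.61 and 10.65 in granulocytes, and the perforin gene Prf1 at 7.29, 7.25 and 7.22 in macrophages and 8.02, 8.19 and 7.87 in granulocytes. Granulocyte pool 3 had the highest NK cell mean and the lowest Stat4 level of the 3, and the part of NK cells in the Stat4 level was not tested. Of the IL-12 receptor genes, Il12rb1 was 0.48 lower in macrophages than in granulocytes (adjusted p = 0.049) and was not called under 9 alternatives, among them without macrophage pool 2 (0.201) or 3 (0.0959) or granulocyte pool 1 (0.110) or 3 (0.153).

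Socs3, which blocks signalling of the G-CSF receptor and of the IL-6 receptor subunit gp130, had the widest range of the members. Macrophages had 5.04, 5.06 and 4.25 and granulocytes 7.76, 8.19 and 7.28. The 11 MDP pools lay between 2.55 and 3.47, around the lower quartile of the arrays: 3.47 and 2.89 without VENUS, 3.24, 2.86 and 3.20 with the knockout label, 2.86, 3.10 and 3.21 with VENUS, and 2.55, 2.93 and 2.93 in the wild type. The macrophages, the granulocytes and the MDPs formed 3 levels without overlap. Macrophages were 2.96 lower than granulocytes (SE 0.26, adjusted p = 1.28e-06), with the granulocytes 7.79-fold higher. The measured log2 differences from wild-type MDPs were 1.98 in macrophages (SE 0.26, adjusted p = 7.09e-05) and 4.94 in granulocytes (SE 0.26, adjusted p = 4.54e-09). Because the MDP values were at the dim end of the arrays, both can understate the change and are given without a fold. In the order of the group means the steps from granulocytes to macrophages and from macrophages to VENUS-negative MDPs were called, and no step among the MDP groups was. For members whose group means spanned at least 2 on their brightest probe set, which were Socs3 and Stat3, the genes most like them were sought. The 3 genes whose levels ran most like those of Socs3 over the 17 arrays were Abtb2 (Pearson r 0.987), Oprm1 (0.981) and Il1b (0.981). For Stat3 they were Mindy2 (0.962), Pfkfb4 (0.955) and Pbxip1 (0.954). These values describe 17 arrays of 6 groups that differ in many genes.

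Cish, a STAT5-induced inhibitor of cytokine receptors, was also highest in granulocytes. Macrophages had 4.95, 4.66 and 4.47, against 5.83, 6.41 and 6.20 in granulocytes. The MDP pools had 5.10 and 5.95 without VENUS, 4.96, 4.82 and 4.84 with the knockout label, 5.49, 4.42 and 4.67 with VENUS, and 4.71, 5.53 and 4.82 in the wild type. Granulocytes were above all macrophage and wild-type pools, and VENUS-negative pool 2 fell within their range. Macrophages minus granulocytes was -1.45 (SE 0.30, adjusted p = 0.00218), granulocytes minus wild-type MDPs 1.13 (SE 0.30, 2.18-fold, adjusted p = 0.00774), and macrophages minus wild-type MDPs -0.33 (interval -0.96 to 0.31). In VENUS-negative MDPs, where Stat5a was highest, Cish was 0.67 above VENUS-positive MDPs with an interval of -0.04 to 1.38 and was not called (adjusted p = 0.375). These groups overlapped, with VENUS-negative pool 1 at 5.10 below VENUS-positive pool 1 at 5.49. A link between Cish and Stat5a in these pools was not tested.

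Socs3 and Cish are textbook targets of STAT proteins, which bind the spaced palindrome TTCNNNGAA. RefSeq start windows, 250 bases before to 50 bases after an annotated start on GRCm38.p6, covered 9 of the 10 genes in 12 windows. Socs2 had no window and was not searched. Both strands were searched, since the pattern is its own reverse complement. It occurred in 2 of the 12 windows, those of Socs3 and Cish, against 8.30% of all 32851 windows, and the form with a spacer of 4, TTCNNNNGAA, occurred in 0 of 12, against 6.95%. The stretches with the matches are shown with the motif in capitals. The Socs3 stretch is the 250 bases before the start at chr11:117969367-117969616 on the minus strand, and the Cish stretch runs from base -5 to base 25 of the start at chr9:107296654-107296683 on the plus strand.
Socs3: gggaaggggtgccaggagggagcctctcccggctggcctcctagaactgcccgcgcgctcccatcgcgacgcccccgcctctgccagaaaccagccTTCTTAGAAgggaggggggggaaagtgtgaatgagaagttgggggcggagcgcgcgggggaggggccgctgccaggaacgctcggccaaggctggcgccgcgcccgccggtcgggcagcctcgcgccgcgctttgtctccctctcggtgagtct
Cish: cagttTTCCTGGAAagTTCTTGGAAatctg
The match of Socs3 begins at base -154, and the 2 matches of Cish begin at bases 1 and 12, separated by 2 bases. The arrays measure transcript levels and not STAT binding, so the matches are descriptions of the sequence.

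**Figure D4:**
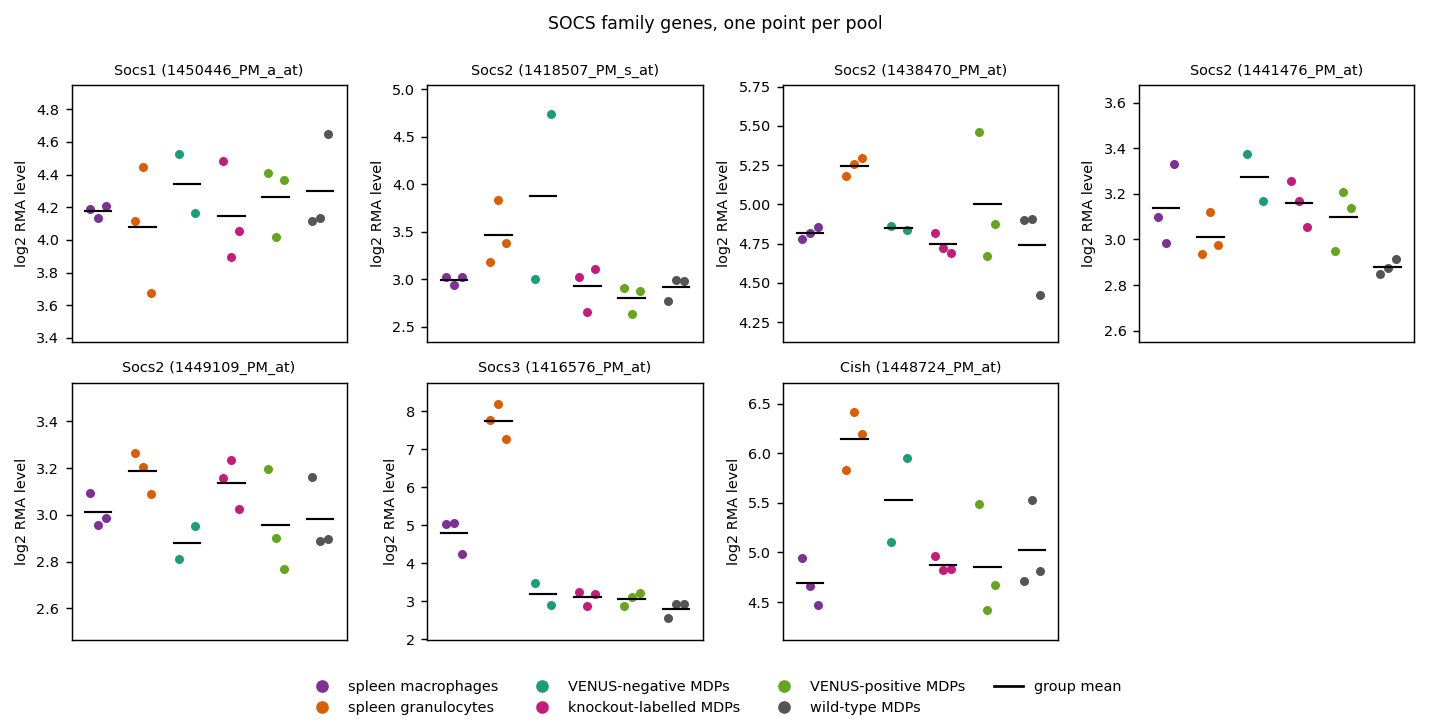
Log2 RMA level (y axis, scaled separately for each probe set) of the Socs1, Socs2, Socs3 and Cish probe sets in the 17 pools, with 1 point per pool, colours for the 6 groups and a bar at each group mean. Socs3 forms 3 levels, with macrophages from 4.25 to 5.06, granulocytes from 7.28 to 8.19 and MDPs from 2.55 to 3.47, while Socs1 stays between 3.67 and 4.65 in every group.

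Socs1, an inhibitor of JAK kinases and of interferon gamma signalling, had no called difference in the 5 comparisons. Its 17 values lay between 3.67, in granulocyte pool 3, and 4.65, in wild-type MDP pool 3, and all groups overlapped. Its differences were 0.10 for macrophages minus granulocytes (interval -0.37 to 0.56) and 0.08 for VENUS-negative minus VENUS-positive MDPs (interval -0.44 to 0.60). These levels are near the array medians.

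Socs2, the inhibitor of growth hormone signalling, was measured by 4 probe sets that did not run together, with a Pearson r between -0.26 and 0.49. The brightest, 1438470_PM_at, had 4.78, 4.82 and 4.86 in macrophages and 5.18, 5.25 and 5.30 in granulocytes, against 4.90, 4.91 and 4.42 in wild-type MDPs. Granulocytes were above both of these groups, while VENUS-positive pool 1, at 5.46, was above all granulocyte pools. The granulocyte minus wild-type difference was 0.50 (SE 0.18, adjusted p = 0.0384), and without wild-type MDP pool 3, the lowest pool, it was 0.34 with an adjusted p of 0.176. It was also lost without any 1 of the granulocyte pools, at adjusted p-values of 0.0541, 0.0844 and 0.0940. Further losses were on the 2 groups alone (0.0736), with arrays centred on the median (0.0757) and with a trended robust variance (0.0634). The other 3 probe sets were near the lower quartile, and 1449109_PM_at stayed between 2.77 and 3.27 in all pools. On 1418507_PM_s_at, VENUS-negative pool 2 was at 4.74 and pool 1 at 3.01, against 2.90, 2.64 and 2.87 with VENUS, and the difference of 1.07 was not called (adjusted p = 0.121). That difference rests on the one high pool. On 1441476_PM_at the knockout-labelled pools had 3.26, 3.17 and 3.06, against 2.85, 2.87 and 2.91 in the wild type.

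That Socs2 probe set was the one member without overlap between knockout-labelled and wild-type MDPs, where 13.6% of all probe sets did not overlap. Its difference of 0.28 had an unadjusted p of 0.0382 and an adjusted p of 0.562, and both groups were at the dim end. It was also the one member of 17 with an unadjusted p under 0.05 in the limma fit. The median difference of the 17 was -0.04, against 0.01 over all probe sets. The widest intervals were those of Stat4 (-0.85 to 0.73), Socs2 on 1418507_PM_s_at (-0.66 to 0.69) and Cish (-0.78 to 0.49), which leave room for changes of up to about those sizes. Jak2 on 1421065_PM_at had the lowest difference, -0.39 (interval -0.84 to 0.07). Of the 10 erythroid markers 4 were lower in knockout-labelled MDPs, where 0.409% of all genes were. Their list means were 4.75, 4.92 and 4.90, against 6.35, 6.63 and 8.95 in the wild type. The part of these markers in the member values was not tested.

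The other genes of the pathway were taken from 8 lists of receptors, kinases, inhibitors and reported targets, 71 genes in all, of which 63 had a probe set of a single symbol. Between knockout-labelled and wild-type MDPs 1 rose and 1 fell, against 0.784% of all genes called. The interferon gamma receptor gene Ifngr1 was at 9.27 to 9.67 in knockout-labelled pools, against 7.58 to 8.51 in the wild type, a difference of 1.29 (adjusted p = 0.0292). The IL-10 receptor gene Il10ra was at 4.53 to 5.01, against 5.45 to 5.73, a difference of -0.91 (adjusted p = 0.0137). Neither pair of groups overlapped, but both calls were fragile. Ifngr1 lost its call without knockout-labelled pool 2 (0.129) or 3 (0.0918) or wild-type pool 2 (0.0863), and Il10ra without knockout-labelled pool 1 (0.0591) or 3 (0.0692) or wild-type pool 1 (0.0812). Fitted on these 2 groups alone, Ifngr1 had an adjusted p of 0.219 and Il10ra 0.179. With a trended robust variance Il10ra had 0.0627.

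Between VENUS-negative and VENUS-positive MDPs 3 of the 63 genes rose and 9 fell, against 5.4% of all genes called. Among receptors that use JAK2 and STAT5, Epor, the erythropoietin receptor, was at 9.23 and 7.54 in the VENUS-negative pools, against 3.89, 4.42 and 4.23 with VENUS (difference 4.20, adjusted p = 6.41e-05). Epor is also 1 of the 10 erythroid markers. The other 5 measured members of that list were not called. Of 10 receptors that use STAT3, 5 fell and 1 rose. The gp130 gene Il6st was at 6.03 to 6.37, against 9.88 to 10.42 (difference -3.96, adjusted p = 4.95e-08), the IL-6 receptor gene Il6ra fell by 2.19 and Il10ra by 2.02, and the IL-27 receptor gene Il27ra rose by 1.57. Of the 4 interferon receptor genes, Ifngr2 fell by 1.63 (not called on these 2 groups alone, adjusted p = 0.0775) and Ifnar2 by 1.49, and Ifngr1 rose by 1.05 (adjusted p = 0.0461). The Ifngr1 call was lost without VENUS-negative pool 1 (0.062) or 2 (0.33) and without VENUS-positive pool 1 (0.142) or 3 (0.0748). On these 2 groups alone Ifngr1 had an adjusted p of 0.223. Of the 17 measured reported STAT target genes 1 was called, the cyclin gene Ccnd1, which fell by 2.19 (adjusted p = 0.000142). The other 16 were not called, and the median difference of the 17 targets was -0.11. The phosphatase gene Ptpn6 fell by 1.10 (adjusted p = 0.0283), a call lost without VENUS-negative pool 2 (0.241) or VENUS-positive pool 2 (0.0947) or 3 (0.0779). On these 2 groups alone Ptpn6 had an adjusted p of 0.258. The lineage markers given beside Stat5a are from the same pools, and their part in these differences was not tested.

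**Figure D5:**
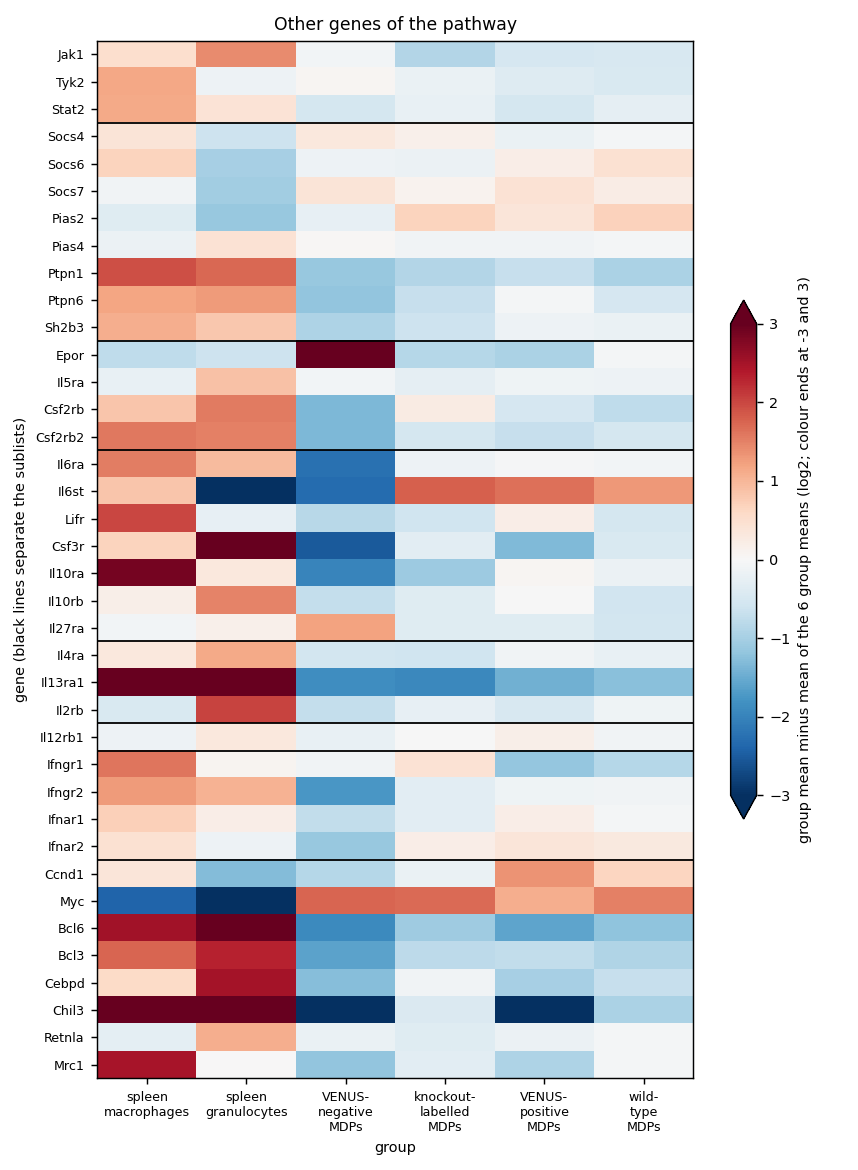
Group mean minus the mean of the 6 group means (colour, log2, ending at -3 and 3) for the 38 named genes of the 8 pathway lists (rows, lists separated by black lines) in the 6 groups (columns). Epor stands out in VENUS-negative MDPs, Csf3r is highest and Il6st lowest in granulocytes, and Il13ra1, Bcl6 and Bcl3 are high in both spleen cell types.

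Of the 10 genes of STAT3-using receptors 4 were higher in macrophages than in granulocytes, 3 were lower and 3 were not called. Of the 63 pathway genes 13 were higher in macrophages and 16 lower, against 29.6% of all genes called. Il6st was at 9.24 to 9.46 in macrophages, against 5.03 to 5.37 in granulocytes (difference 4.11, adjusted p = 1.63e-09). The G-CSF receptor gene Csf3r was at 8.07 to 8.26 in macrophages, against 11.22 to 11.83 in granulocytes (difference -3.28, adjusted p = 5.07e-07). Il10ra was 2.57 higher in macrophages and Lifr, the receptor for leukaemia inhibitory factor, 2.26 higher. The members called in the same comparison were Stat4, Socs3 and Cish, all lower in macrophages, and Stat5a, higher in macrophages. Stat3, Stat5b, Stat6, Socs1, Socs2 and Jak2 were not called, and a link between receptors and members was not tested. The median difference of the 17 member probe sets was -0.20, against -0.10 over all probe sets. Of the 17 reported target genes 3 were higher in macrophages and 7 lower. The mannose receptor gene Mrc1 was 2.47 higher and Ccnd1 1.66 higher, and Cebpd, a C/EBP transcription factor gene, was 1.93 lower. All differences named here were called. Among the inhibitors outside the members, Socs6 was 1.66 and Socs7 0.93 higher in macrophages. The subunit gene Il2rb of the IL-2 and IL-15 receptors, itself 1 of the 12 NK cell markers, was 2.47 lower.

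Macrophages and granulocytes were each set against the same 3 wild-type MDP pools, so these 2 comparisons share their control values, and they also differ from the MDPs in tissue. Cell type and tissue cannot be told apart. The median difference of the 17 member probe sets was 0.30 in macrophages, against 0.00 over all probe sets, and 0.58 in granulocytes, against 0.11. In macrophages 25 of the 63 pathway genes rose and 2 fell, against 22.4% of all genes called, and in granulocytes 31 rose and 8 fell, against 43.8%. The IL-13 receptor gene Il13ra1 was at 9.96 to 10.14 in macrophages and 9.75 to 10.54 in granulocytes, against 4.93 to 6.65 in wild-type MDPs, differences of 4.44 and 4.53. The shared receptor chain gene of GM-CSF, IL-3 and IL-5, Csf2rb, was 1.58 higher in macrophages and 2.32 higher in granulocytes. All these differences and those that follow in macrophages or granulocytes were called. Il10ra (3.04) and Lifr (2.53) had the largest rises among the STAT3-using receptors in macrophages. In granulocytes Csf3r was 4.42 higher and Il6st 4.56 lower. Among kinases and STATs outside the members, Tyk2 was 1.62 and Stat2 1.41 higher in macrophages, and Jak1 1.89 higher in granulocytes. The phosphatase gene Ptpn1, an inhibitor of JAK2, was 2.88 higher in macrophages and 2.67 higher in granulocytes.

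Of the 17 reported STAT targets measured, 7 rose, 1 fell and 9 were not called in macrophages against wild-type MDPs, where 22.4% of all genes were called. In granulocytes 11 rose, 2 fell and 4 were not called, where 43.8% of all genes were called. Bcl6, a transcriptional repressor gene, was at 9.41 to 9.53 in macrophages and 9.99 to 10.44 in granulocytes, against 5.20 to 6.33 in wild-type MDPs. The growth gene Myc was at 6.08 to 6.61 in macrophages and 4.95 to 5.17 in granulocytes, against 10.11 to 10.44 in wild-type MDPs. Bcl3 was 2.64 higher in macrophages and 3.21 higher in granulocytes. Chil3, a chitinase-like gene induced by STAT6 in macrophages, was 4.82 higher in macrophages and 5.13 higher in granulocytes, but ranged from 4.20 to 11.25 among the 3 wild-type MDP pools. Its macrophage call was lost without wild-type MDP pool 1, where the difference was 3.34 (adjusted p = 0.0546), or pool 2 (4.26, adjusted p = 0.0512). Fitted on the compared groups alone, neither call held (adjusted p = 0.0723 in macrophages and 0.0542 in granulocytes). Of 12 neutrophil markers 9 were higher and 3 lower in granulocytes than in wild-type MDPs, against 21.3% and 22.6% of all genes. Of 13 monocyte and macrophage markers 9 were higher in macrophages than in wild-type MDPs and none lower, against 10.9% of all genes higher. The part of cell identity in the member differences was not tested.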

How the data were processed

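Values were the authors' deposited log2 expression values of 17 arrays, made with RMA in Affymetrix Expression Console per the submitters' processing notes; RMA subtracts background, sets all arrays to 1 distribution and summarises probes, so absolute shifts of a whole array are removed. Number of arrays limits the precision. Dendritic cell samples were not analysed here. Probe sets were named from GEO's platform annotation: 28898 had 1 symbol, 551 several and 15588 none. With limma 3.58.1 (R 4.3.3), a mean per group was fitted over all 17 arrays without covariates (residual degrees of freedom 11), and p-values were adjusted (Benjamini-Hochberg) over all 45037 probe sets and called under 0.05. Intervals are 95% and unadjusted. Pathway and marker genes were read on the probe set with the highest mean, and up to 4 called genes with the largest differences were named per list and comparison. Markers named were the 3 with the highest values of a list, which picks names and compares no levels. Genes most like a member were ranked by Pearson r. The members and lists were chosen with earlier results of these data known. Pool numbers were not used to pair the samples in the main fit. Deviations of same-numbered pools from their group means correlated at -0.07 to 0.12. With so few pools per group, these values cannot show whether same-numbered pools share mice or a day. No 2 arrays were identical. Alternatives were the compared groups alone, a replicate block, 1 probe set per gene, dim probe sets left out, arrays centred on the median, a trended robust variance, and each pool left out. The fit was tested on simulated data. Promoter windows came from RefSeq.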

Additional observations from a re-analysis of the deposited data

How the results depend on the processing

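Of 29 called member results (a probe set in a comparison), 334 alternative fits kept the direction in all cases, with 285 also keeping the call and 49 losing it. For VENUS-negative against VENUS-positive MDPs, 2 member probe sets were called in the fit of all groups, 0 when only these groups were fitted and 1 with 1 probe set per gene, where 10 are tested. Leaving out a VENUS-positive pool gave 2 without pool 1 or 2 and 1 without pool 3. Leaving out a VENUS-negative pool left 1 array in that group, so only the size of the difference is given. On 1450259_PM_a_at it was 1.10 without VENUS-negative pool 1 and 1.34 without pool 2. For granulocytes against wild-type MDPs the count was 7 of 10 with 1 probe set per gene, against 11 of 17, and 9 to 10 with a pool left out. It was 9 with arrays centred on the median, 9 with a trended robust variance and 10 on these groups alone. Leaving out a pool gave 4 to 5 for macrophages against granulocytes, 5 to 7 for macrophages against wild-type MDPs and 0 for the knockout comparison. With the pool number as a replicate block the counts were 0, 2, 5, 7 and 11, as without it; single calls lost under the block were Stat5a on 1450259_PM_a_at (adjusted p = 0.0794) and Jak2 on 1421066_PM_at (adjusted p = 0.0604) for VENUS-negative against knockout-labelled MDPs, and, of the pathway genes, Ptpn6 for VENUS-negative against VENUS-positive MDPs (adjusted p = 0.0588), Il12rb1 for macrophages against granulocytes (0.0628), Pias2 (0.0520) and Ifnar1 (0.0518) for macrophages against wild-type MDPs, and Ifnar2 for granulocytes against wild-type MDPs (0.0708). Centring moved the median of all probe sets by under 0.1 (log2). The alternatives of VENUS-negative against knockout-labelled or wild-type MDPs, and of the named pathway genes, were chosen after seeing the data; of 75 pathway results 18 lost their call in at least 1 and 0 reversed. The cause of these changes was not tested, beyond the smaller number of arrays or probe sets tested. Values near the lower quartile, those of Socs3 in MDPs and of 3 Socs2 probe sets, cannot show a decrease.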
